A study of Homo sapiens with 7 samples.

Results

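The genes described here build the contacts that hold epithelial cells together and give them a top and a bottom: claudins and other tight junction proteins, the polarity complexes, the desmosome and the adherens junction. Of 52 such genes listed by name, 44 were measured on the arrays, out of 14232 genes in all. A gene was taken as measured where a transcript cluster, the set of probes that stands for 1 gene locus, was annotated with that symbol alone. CLDN2, CLDN10, CXADR, EVPL and CTNND1 were covered only by clusters annotated with several symbols, and no cluster carried OCLN, MARVELD2 or F11R.

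CSC, the CD44+CD24- cells sorted from the DU145 line, were compared with parental DU145 cells, an androgen-independent human prostate carcinoma line that had not been sorted. There were 4 CSC and 3 DU145 arrays, all from the same line, and neither group received a drug or carried an introduced allele. By the methods of the study, CSC were grown as floating spheroids without serum, with EGF, bFGF and insulin, and groups of spheroids were pooled for RNA, whereas DU145 cells were grown attached in medium with serum, so that sorting, serum, growth factors and attachment cannot be told apart. The labels describe only the culture with serum and call the CSC sorted cells. Separate cultures are not stated for the arrays of either group, so the spread behind the p-values may be technical. The methods give 3 replicates per condition without naming the CSC arrays meant, and all 4 were kept.

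Tight junctions seal the space between neighbouring epithelial cells. Claudins form their strands, proteins such as the ZO family and cingulin tie the strands to actin, and the Par and Crumbs complexes place the belt at the border of the apical surface. Desmosomes are spot welds in which cadherins of the desmoglein and desmocollin families are linked through plakoglobin, plakophilins and desmoplakin to keratin filaments. In carcinoma cells these genes are widely used as readouts of the epithelial state, and repressors of the ZEB and SNAIL families are known to act on several of them through a DNA element called the E2-box.

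Values are log2 intensities summarized per gene by the authors. The medians of the arrays were 5.88 to 5.91 in CSC and 5.77 to 5.89 in DU145 cells. Pearson's r across clusters was 0.967 to 0.975 between CSC arrays, 0.977 to 0.983 between DU145 arrays and 0.951 to 0.962 between a CSC and a DU145 array. Keratins of epithelial cells (KRT8, KRT18, KRT19, KRT7 and KRT14) were all above the median cluster in brightness and none passed the test. The prostate luminal genes KLK3, KLK2 and TMPRSS2 were all below the median cluster. None of the 6 fibroblast, 5 leukocyte or 6 neuroendocrine markers measured passed. All CSC arrays lay above all DU145 arrays for 3 of the 5 leukocyte markers (60.0%, against 12.7% of all genes), with log2 changes of 0.91 for CD68, 1.53 for LYZ and 0.31 for CD14, and for 1 neuroendocrine marker, ENO2, at 0.78 (limma adjusted p = 0.0551), and 1 fibroblast marker. LYZ averaged 4.18 in CSC and 2.66 in DU145 cells, at background in both groups, with 0.02 between the nearest arrays (limma adjusted p = 0.252). CD68, a lysosomal protein also made outside leukocytes, averaged 9.37 in CSC and 8.47 in DU145 cells, while PTPRC, which defines leukocytes, was at background in both groups, at 2.27 in CSC and 2.20 in DU145 cells. CD44, a surface protein used in the sort, was at 8.25, 7.60, 8.07 and 7.09 in CSC and 8.79, 8.62 and 9.39 in DU145 cells, a log2 change of -1.18 (limma adjusted p = 0.128). CD24 averaged 8.54 ± 0.41 in CSC (SD, n = 4) and 8.93 ± 0.36 in DU145 cells (SD, n = 3). Its groups overlapped, with a log2 change of -0.40 (limma adjusted p = 0.449). RNA levels of the CD44 marker therefore did not stand higher on the CSC arrays, whose RNA by the methods came from spheroids grown after the sort. The study's own Q-PCR found similar CD44 mRNA in spheroids and DU145 cells, and significantly lower CD24 mRNA in spheroids.

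CSC had higher levels of 8 of the 44 measured junction genes and a lower level of 1, while 35 did not pass the test. The genes that rose were the claudins CLDN7 and CLDN4, the adhesion protein EPCAM, the scaffold CGN, the desmosomal genes JUP, DSP and DSC2, and the adherens junction cadherin CDH3, and the gene that fell was the claudin CLDN11. A gene passed where the limma p, adjusted by Benjamini-Hochberg over all 22011 clusters, was no more than 0.05 and the log2 change, CSC minus DU145, was 1 or more in size. The 8 genes are 18.2% of those measured, and 143 of all 14232 genes (1%) passed in that direction. The 1 gene is 2.27%, and 60 of all genes (0.422%) passed in that direction. The listed genes were chosen with earlier results of these data known. Of the 44, 32 were brighter than the median cluster, and the set of all genes was not matched to them in brightness. All 4 CSC arrays lay above all 3 DU145 arrays for 18 of the 44 genes (40.9%, against 12.7% of all genes) and below them for 3 (CLDN11, DSC3 and PALS1, 6.82%, against 3.77%). By the exact two-sided permutation test over the arrays, each of the 9 genes that passed gave p = 0.0286, the smallest that 4 against 3 arrays allow. MARVELD3, PARD6B, PATJ, PALS1, LLGL2, DSG2 and DSC3, which did not pass, gave the same p. As the 9 were selected for their difference on the same arrays, this p adds no further evidence for them. The median log2 change was 0.23 over the 44 genes and 0.10 over all genes. As the RNA came from bulk samples, fewer cells of a type and less RNA per cell cannot be told apart.

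**Figure D1:**
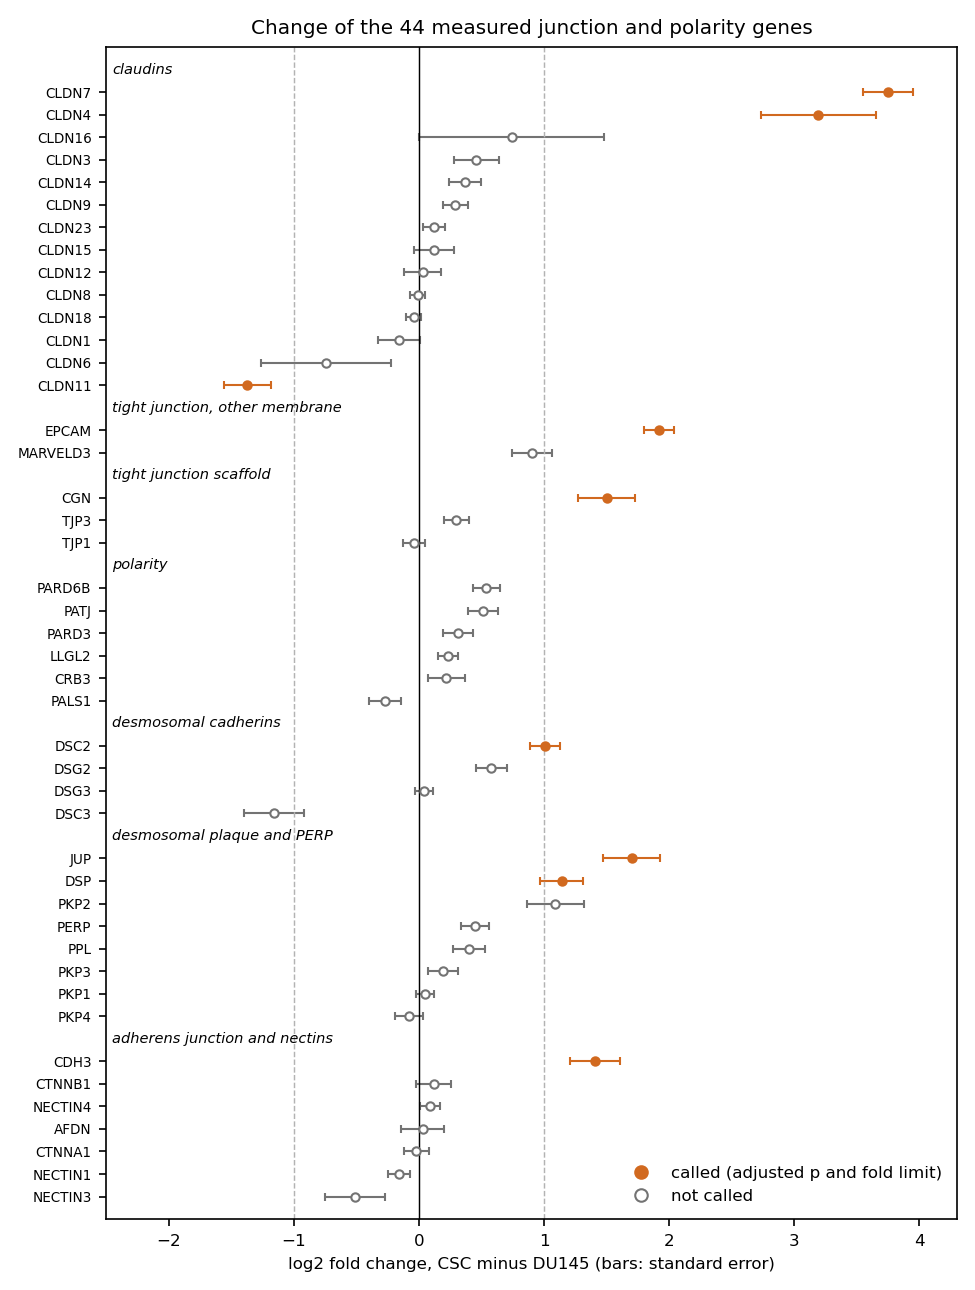
Log2 fold change of each of the 44 measured genes, CSC minus DU145, on the horizontal axis, with the standard error of the limma fit as bars and the genes grouped by role down the page; filled points passed the test and open points did not. CLDN7 lies farthest right at 3.75 and CLDN11 farthest left at -1.37, and 33 of the 35 open points lie between -0.74 and 0.90.

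Among the claudins, 14 of 16 were measured, 2 rose, 1 fell and 11 did not pass. CLDN7, a claudin of the basolateral membrane that binds EPCAM, had log2 values of 8.30, 8.41, 8.46 and 7.82 in CSC, against 4.67, 4.19 and 4.65 in DU145 cells. Every CSC array was above every DU145 array, with 3.15 between the nearest values, and the DU145 mean of 4.50 ± 0.27 (SD, n = 3) was under 4.92, the 95th percentile of 225 olfactory receptor genes that serve here as a background level. The log2 change was 3.75 (standard error 0.20), a 13.4-fold difference between the measured values (limma adjusted p = 0.00136), with the DU145 side at background. CLDN4, a barrier claudin and a receptor of Clostridium perfringens enterotoxin, was at 7.15, 7.52, 7.72 and 7.83 in CSC, against 3.20, 4.99 and 4.93 in DU145 cells. The groups were 2.17 apart, and DU145 array 1 lay well below the other DU145 arrays. The DU145 mean of 4.37 ± 1.01 (SD, n = 3) was under 4.92 too, but only through array 1, as the other DU145 arrays were just above that level. CLDN4 rose by 3.19 in log2 units (standard error 0.46, limma adjusted p = 0.0302), or 2.60 without DU145 array 1 (adjusted p = 0.0255). Its call was lost without any single other array, with adjusted p-values of 0.0542 to 0.0966.

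CLDN11 moved the other way. This claudin is best known from the tight junctions of myelin and of Sertoli cells in the testis. Its values were 6.27, 6.80, 6.34 and 6.41 in CSC, against 7.53, 8.18 and 7.77 in DU145 cells, again with no overlap. The log2 change was -1.37 (standard error 0.19), a 2.59-fold lower level (limma adjusted p = 0.0288), and the call was lost whichever array was left out (adjusted p 0.0558 to 0.0905).

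The other claudins measured did not pass, with log2 changes of -0.74 to 0.74. The ends of that range were set by CLDN6 and by CLDN16, a claudin of magnesium reabsorption in the kidney, and both were at background in both groups, as was CLDN8. CLDN16 averaged 4.57 ± 1.36 in CSC (SD, n = 4) and 3.83 ± 0.43 in DU145 cells (SD, n = 3), and its mean in CSC rested on array 4, at 6.62. CLDN3, which like CLDN4 binds the enterotoxin, averaged 7.45 ± 0.24 in CSC and 6.99 ± 0.28 in DU145 cells, a difference of 0.46 (limma adjusted p = 0.234). CLDN1, the claudin of the skin barrier, was at 9.67 ± 0.18 in CSC and 9.83 ± 0.30 in DU145 cells (limma adjusted p = 0.612), with overlapping groups.

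Of 6 other membrane proteins listed with the tight junction, only EPCAM and MARVELD3 were measured. EPCAM, an adhesion molecule of simple epithelia and carcinomas that partners with CLDN7, was at 10.02, 10.06, 10.03 and 10.21 in CSC, against 7.93, 8.20 and 8.36 in DU145 cells. The CSC arrays were close together and all above the DU145 arrays. EPCAM rose by 1.92 in log2 units (standard error 0.12), 3.78-fold (limma adjusted p = 0.00209). CLDN7 and EPCAM were also the only members to keep their calls whichever of the 7 arrays was left out. MARVELD3, a relative of occludin, was at 7.65, 7.15, 7.43 and 7.04 in CSC and 6.52, 6.28 and 6.44 in DU145 cells. These groups did not overlap either, yet the difference of 0.90 (standard error 0.16, limma adjusted p = 0.0529) missed both limits.

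On the cytoplasmic side of the tight junction, 1 of 3 scaffold genes rose. CGN encodes cingulin, a plaque protein that joins ZO proteins to actomyosin and microtubules, and had values of 7.20, 7.65, 7.50 and 8.15 in CSC, against 5.99, 6.33 and 6.07 in DU145 cells. No CSC array reached down to the DU145 range, and array 4 was the highest. CGN rose by 1.50 (standard error 0.23), 2.82-fold (limma adjusted p = 0.0347). Its call held without CSC array 1 or CSC array 4 and was lost without any of the other 5 arrays (adjusted p 0.0825 to 0.119). TJP1, which encodes ZO-1, averaged 9.99 ± 0.11 in CSC (SD, n = 4) and 10.03 ± 0.13 in DU145 cells (SD, n = 3), a difference of -0.04 (limma adjusted p = 0.850) that took the other sign under array weights and without CSC array 3 or DU145 array 3. TJP3, which encodes ZO-3, averaged 6.08 ± 0.15 in CSC and 5.79 ± 0.07 in DU145 cells (limma adjusted p = 0.183).

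None of the 6 polarity genes passed the test in limma. By unadjusted p at 0.05 with no fold limit, 4 were higher and 0 lower, where 14.9% of all genes were higher and 4.19% lower. Their log2 changes ran from -0.27 to 0.54, with a median of 0.27. PARD6B, an adaptor of the Par complex that binds atypical protein kinase C, averaged 9.44 ± 0.17 in CSC (SD, n = 4) and 8.91 ± 0.06 in DU145 cells (SD, n = 3), 0.54 higher (limma adjusted p = 0.0620). PATJ, a scaffold of the Crumbs complex, averaged 7.69 ± 0.14 in CSC and 7.17 ± 0.19 in DU145 cells (limma adjusted p = 0.0911). Both had all CSC arrays above all DU145 arrays, as did LLGL2, a homologue of a fly tumour suppressor of the basolateral domain, which makes 3 of 6 (12.7% of all genes). PARD3, the central scaffold of the Par complex, averaged 8.47 ± 0.16 in CSC and 8.16 ± 0.18 in DU145 cells (limma adjusted p = 0.238). PALS1, which bridges Crumbs and PATJ, had the lowest log2 change of the 6, at -0.27 (limma adjusted p = 0.306). Its CSC arrays were all lower than its DU145 arrays, but by a gap that rounds to 0.00.

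**Figure D2:**
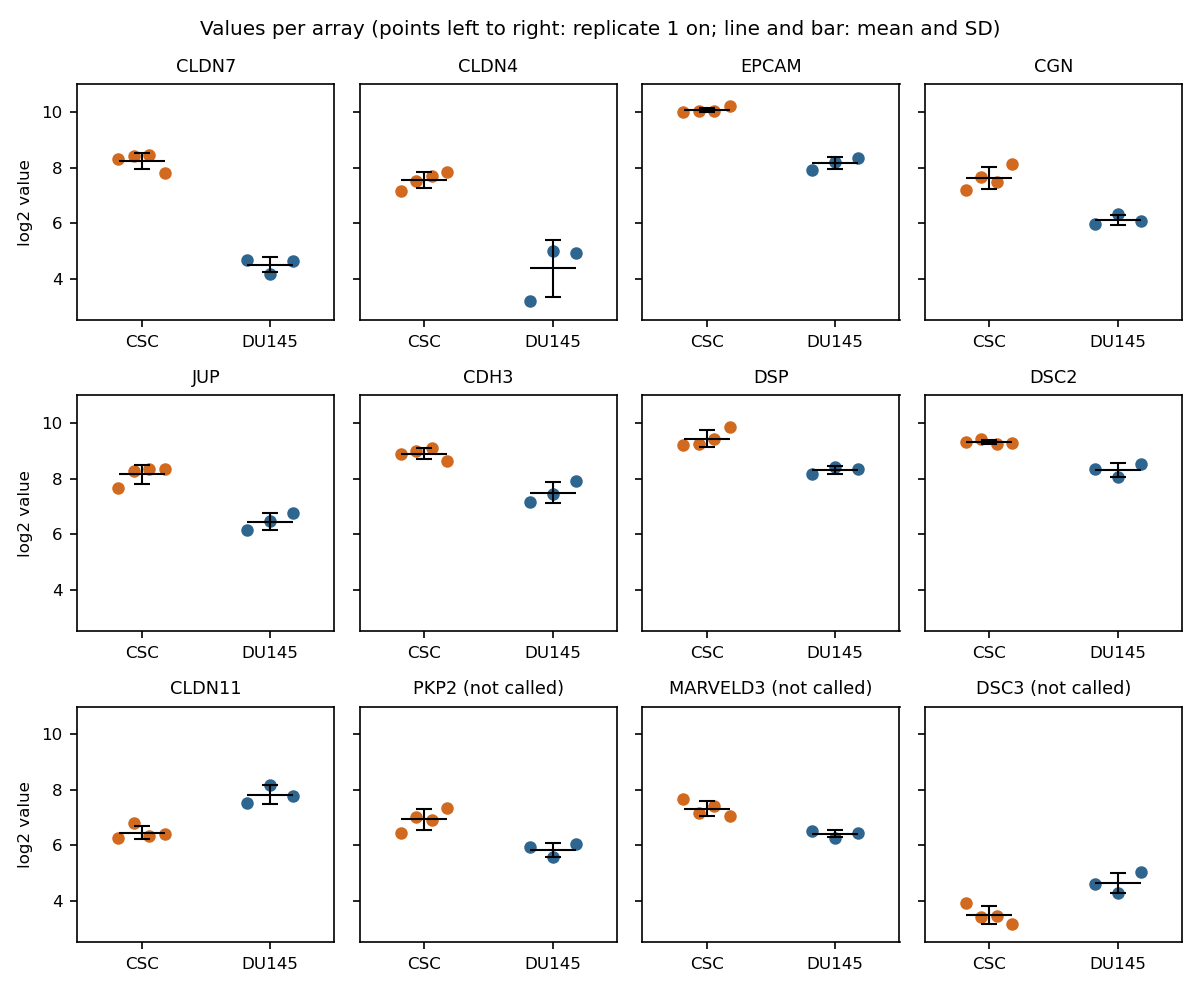
Log2 value of 12 genes on each array, CSC left and DU145 right in each panel, with 1 point per array (replicate 1 on, left to right) and the mean and SD as a line and bars (n = 4 CSC and 3 DU145). The top 8 panels are the genes that rose, CLDN11 is the gene that fell, and PKP2, MARVELD3 and DSC3 did not pass although their groups do not overlap; the gap is widest for CLDN7, at 3.15.

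In the desmosome, the plaque gave 2 of the genes that rose and the cadherins 1, of 8 and 4 members measured. JUP, or plakoglobin, which links desmosomal cadherins to desmoplakin and also binds classical cadherins, was at 7.66, 8.29, 8.36 and 8.35 in CSC, against 6.14, 6.48 and 6.76 in DU145 cells. CSC array 1 was the lowest of its group by a wide margin but still 0.89 above the highest DU145 array. JUP rose by 1.70 (standard error 0.23), 3.26-fold (limma adjusted p = 0.0263, and 0.0166 without CSC array 1). Left out singly, each of the other 6 arrays took the adjusted p to 0.0545 or higher, up to 0.105. JUP was among the genes that the study itself selected on these samples and is not independent evidence of a direction.

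DSP encodes desmoplakin, which anchors keratin filaments to the plaque. Its values were 9.23, 9.25, 9.43 and 9.88 in CSC, against 8.16, 8.42 and 8.35 in DU145 cells, with CSC array 4 the highest. DSP rose by 1.14 (standard error 0.17), 2.20-fold (limma adjusted p = 0.0350). Its call was lost without any 1 of the 7 arrays: without CSC array 4 the adjusted p was 0.0275 and the log2 change fell just under the limit of 1, and without the others the adjusted p was 0.0508 to 0.119. PKP2, a plakophilin of desmosomes in simple epithelia and heart muscle, was at 6.46, 7.01, 6.92 and 7.35 in CSC and 5.94, 5.56 and 6.04 in DU145 cells. Its difference of 1.09 exceeded the fold limit without overlap between groups and did not pass (standard error 0.23, limma adjusted p = 0.0690). It passed without CSC array 1 (adjusted p = 0.0463) and where dim clusters were left out (adjusted p = 0.0238). PERP, a membrane protein needed for desmosome assembly, averaged 9.65 ± 0.16 in CSC and 9.20 ± 0.14 in DU145 cells (limma adjusted p = 0.106), and periplakin (PPL) averaged 6.01 ± 0.09 in CSC and 5.61 ± 0.25 in DU145 cells (limma adjusted p = 0.170). The other plakophilins measured had log2 changes of -0.08 for PKP4, 0.05 for PKP1 and 0.19 for PKP3.

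The 4 desmosomal cadherins among the members lie within 500 kb of each other on chromosome 18 in the GRCh38.p14 gene table, and their log2 changes differed. DSC2 and DSC3, and DSG2 and DSG3, are adjacent there among protein-coding genes. DSG1, DSG4 and DSC1, also on chromosome 18 and counted with the further junction genes, were at background in both groups and did not pass. DSC2 and DSG2 are the pair found in all desmosome-bearing tissues, while DSC3 and DSG3 are those of the basal layers of stratified epithelia. DSC2 was at 9.31, 9.45, 9.26 and 9.28 in CSC, against 8.36, 8.05 and 8.53 in DU145 cells. The groups were 0.73 apart. DSC2 rose by 1.01 (standard error 0.12, limma adjusted p = 0.0222), close to the fold limit of 1. The call was lost with arrays centred on equal medians or quantile normalized once more, and without CSC array 2 (log2 change 0.97, adjusted p = 0.0733) or DU145 array 2 (0.88, adjusted p = 0.0521). Without CSC array 3 or DU145 array 1 the adjusted p was 0.0594 and 0.0832. DSG2 was at 10.73, 10.78, 10.52 and 10.54 in CSC and 10.09, 9.88 and 10.23 in DU145 cells, 0.58 higher without overlap, and did not pass (limma adjusted p = 0.0640). DSC3 was at 3.92, 3.41, 3.46 and 3.15 in CSC and 4.61, 4.28 and 5.03 in DU145 cells. All of its CSC arrays were below all of its DU145 arrays, yet both means were at background and the difference of -1.16 did not pass (standard error 0.24, limma adjusted p = 0.0665). DSG3 averaged 2.77 ± 0.08 in CSC and 2.72 ± 0.01 in DU145 cells, at background in both, and a difference of 0.04 became -0.03 with arrays centred.

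For genes that are neighbours, the change in one was set against the change in the other on the same arrays with a two-sided exact permutation test (35 splits of the arrays, smallest possible p 0.0286). There were 9 pairs of members within 500 kb of each other, and this comparison was chosen after single values had been seen. DSC2 and DSC3, 16 kb apart, differed in log2 change by 2.17, and CLDN4 and CLDN3, 61 kb apart on chromosome 7, by 2.73. Each gave the smallest p the exact test allows, 0.0286 (0.0367 after Benjamini-Hochberg adjustment over the 9 pairs), as did all 6 pairs among the desmosomal cadherin members, where the smallest difference was 0.43 between DSC2 and DSG2. Those 6 pairs share genes and arrays and are not separate results. Where a gene of the pair hardly changed, the difference repeats the test of its neighbour, so these p-values add no further evidence. CLDN9 and CLDN6 differed by 1.03 (exact p = 0.114) and CLDN16 and CLDN1 by 0.90 (exact p = 0.457), and neither pair passed. Pairs with DSC3, DSG3, CLDN6 or CLDN16 include a gene at background in both groups, and CLDN4 was near or under the background level in DU145 cells, so the sizes of these differences are not well measured.

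**Figure D3:**
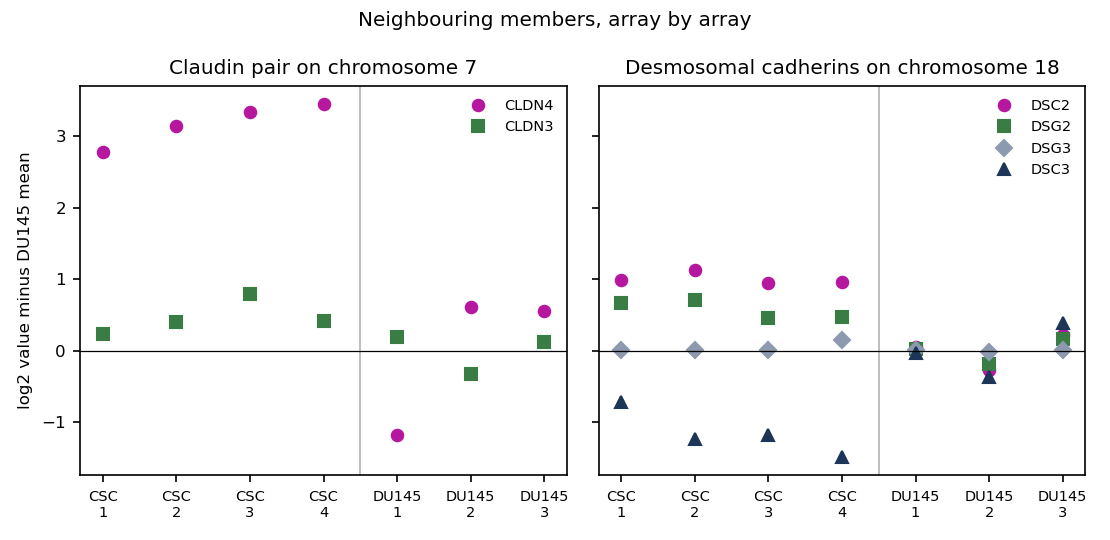
Log2 value of neighbouring genes on each array minus the gene's DU145 mean. CLDN4 and CLDN3 of chromosome 7 are on the left, and the 4 desmosomal cadherins among the members, on chromosome 18, are on the right. Each point is 1 array, CSC left of DU145. On the CSC arrays DSC2 and DSG2 lie above 0, DSG3 near 0 and DSC3 below 0. CLDN4 lies above CLDN3 on the CSC arrays, and on DU145 array 1 it lies below.

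To set the sequence beside these values, the 250 bases before the start of 5 of them are shown: DSP and DSC2, the genes that rose and hold the E2-box CAGGTG there, DSC3, the neighbour of DSC2 with a value of -1.16, and the claudins CLDN7 and CLDN4, which rose. The sequences are from RefSeq on GRCh38.p14, 5′ to 3′ on the strand of the gene, and capitals mark the E2-box. They cover chr6:7541421-7541670 (plus strand) for DSP, chr18:31102422-31102671 (minus) for DSC2, chr18:31042743-31042992 (minus) for DSC3, chr17:7263214-7263463 (minus) for CLDN7 and chr7:73830746-73830995 (plus) for CLDN4.
DSP: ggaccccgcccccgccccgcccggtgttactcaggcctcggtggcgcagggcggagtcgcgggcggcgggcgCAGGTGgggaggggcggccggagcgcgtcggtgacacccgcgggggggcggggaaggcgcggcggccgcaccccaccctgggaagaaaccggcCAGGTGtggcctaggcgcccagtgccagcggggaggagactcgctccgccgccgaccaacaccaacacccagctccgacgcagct
DSC2: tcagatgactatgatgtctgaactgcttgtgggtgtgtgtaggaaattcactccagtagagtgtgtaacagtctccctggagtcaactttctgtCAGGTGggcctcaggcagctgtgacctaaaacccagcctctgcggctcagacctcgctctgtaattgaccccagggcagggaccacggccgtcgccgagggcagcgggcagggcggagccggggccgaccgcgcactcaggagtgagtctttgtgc
DSC3: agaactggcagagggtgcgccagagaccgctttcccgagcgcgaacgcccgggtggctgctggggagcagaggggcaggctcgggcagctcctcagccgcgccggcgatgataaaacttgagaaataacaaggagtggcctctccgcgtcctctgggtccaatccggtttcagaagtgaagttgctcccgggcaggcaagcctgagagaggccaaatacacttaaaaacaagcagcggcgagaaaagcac
CLDN7: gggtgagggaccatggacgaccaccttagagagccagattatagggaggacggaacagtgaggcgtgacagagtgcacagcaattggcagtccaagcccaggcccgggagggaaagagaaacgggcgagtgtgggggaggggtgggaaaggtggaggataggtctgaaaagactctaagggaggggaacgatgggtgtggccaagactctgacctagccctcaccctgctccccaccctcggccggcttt
CLDN4: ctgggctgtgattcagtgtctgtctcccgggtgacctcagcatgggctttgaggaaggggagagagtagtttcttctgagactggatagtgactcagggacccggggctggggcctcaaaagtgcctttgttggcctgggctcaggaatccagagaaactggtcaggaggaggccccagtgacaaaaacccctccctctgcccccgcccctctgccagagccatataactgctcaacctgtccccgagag

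In these letters DSP holds the E2-box 178 and 85 bases before the start and DSC2 holds it 156 bases before, and DSC3, CLDN7 and CLDN4 hold none. The share of G and C was 78.0% in DSP and 58.8% to 60.4% in the other 4. Windows of 250 bases before and 50 after the start were matched for 35 of the 52 genes, 31 of them measured and 6 of them among the 8 that rose, and none was matched for EPCAM or CDH3. Counting both strands, CAGGTG was in 11 of the 31 measured genes (35.5%), against 20.6% of 27305 windows in the table, and in 2 of the 6. The GC box GGGCGG was in 25 of the 31 (80.6%), against 44.6% of all, and in 5 of the 6 (CLDN4, CGN, DSC2, DSP and JUP). The grainyhead motif ACCGGTT was in 0 of the 31, against 0.787% of all, and the TATA box TATAAA in 0 of the 31, against 12.0% of all. The windows of the table were not limited to genes measured on the arrays, so these shares compare unlike sets. CAGGTG shares no position with the GC boxes in the sequences shown, and such matches describe letters, not binding.

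Of the adherens junction and nectin genes, 7 of 8 were measured and 1 rose. CDH3, the P-cadherin of basal epithelial cells, was at 8.88, 8.99, 9.12 and 8.64 in CSC, against 7.15, 7.44 and 7.91 in DU145 cells. The groups were 0.73 apart, and DU145 array 3 was the highest of its group. CDH3 rose by 1.41 (standard error 0.20), 2.65-fold (limma adjusted p = 0.0297). The call held without CSC array 4 or DU145 array 3 and was lost without any of the other 5 (adjusted p 0.0602 to 0.117). Neither of the catenins measured, which join cadherins to actin, passed. CTNNA1 had a log2 change of -0.02 and CTNNB1 of 0.12 (standard error 0.14, limma adjusted p = 0.648). These are RNA levels, and by immunofluorescence the study found more β-catenin protein in spheroids than in DU145 cells. NECTIN3, an immunoglobulin-like adhesion molecule, averaged 7.92 ± 0.38 in CSC and 8.43 ± 0.29 in DU145 cells (limma adjusted p = 0.301). NECTIN1 had a log2 change of -0.16 and AFDN, the actin-binding partner of nectins, of 0.03.

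Across the genes that rose, the same arrays were often lowest or highest in their group. CSC array 1 was the lowest CSC array for 5 of the 8 and CSC array 4 the highest for 4, while DU145 array 1 was the lowest DU145 array for 6 and DU145 array 3 the highest for 4. Averaged over the 8 genes, the log2 value was 8.47, 8.70, 8.74 and 8.77 on the CSC arrays and 6.45, 6.76 and 6.94 on the DU145 arrays. As the 8 were selected for their difference between groups, these averages only describe them. All 9 genes that passed were brighter than the median cluster, as were 32 of the 44 measured. At background were CLDN6, CLDN8, CLDN16, DSG3, DSC3 and NECTIN4, none of which passed, and 13 of the 44 had arrays that share an identical value.

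**Figure D4:**
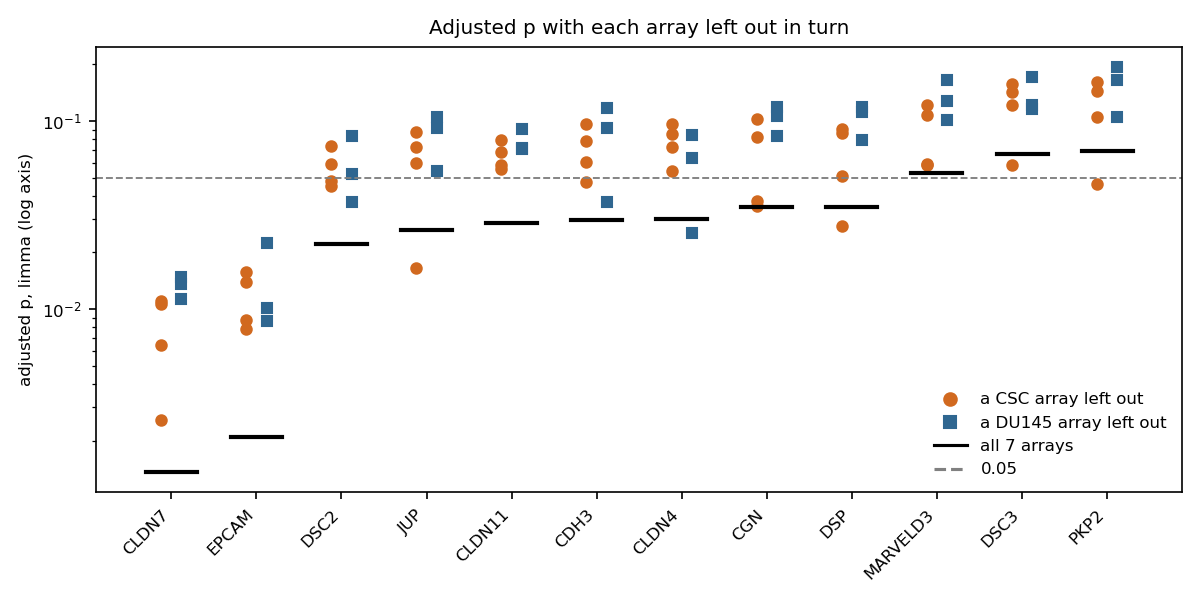
Adjusted p from limma on a log axis for the 9 genes that passed and for MARVELD3, DSC3 and PKP2; bars are all 7 arrays, orange circles the fits without 1 CSC array, blue squares those without 1 DU145 array and the dashed line 0.05. CLDN7 (0.00256 to 0.0148) and EPCAM (0.00788 to 0.0224) stay below the line in every fit, and every point of CLDN11 lies above it.

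Beyond the 52 genes, 46 of 58 further junction genes were measured, and 2 rose (4.35%, against 1% of all genes) and none fell in limma (0.422% of all genes). By unadjusted p at 0.05 there were 9 higher and 6 lower, where the shares of all genes were 14.9% and 4.19%. Their median log2 change was 0.09. CDH1, or E-cadherin, the main cadherin of epithelial adherens junctions, was at 10.36, 10.12, 10.22 and 9.70 in CSC, against 6.40, 6.78 and 7.15 in DU145 cells. It rose by 3.32 (standard error 0.22), 9.99-fold (limma adjusted p = 0.00285), and like JUP had been selected by the study on these samples. For CDH1, unlike JUP, the study also ran Q-PCR, which gave higher mRNA in CSC. Its immunofluorescence showed more E-cadherin protein in spheroids than in DU145 cells. ST14, the membrane protease matriptase, which is needed for epithelial barriers, was at 6.90, 6.98, 7.64 and 6.62 in CSC, against 4.82, 4.96 and 5.22 in DU145 cells. Again the groups did not overlap, and ST14 rose by 2.04 (standard error 0.24, limma adjusted p = 0.0215). The call of CDH1 held whichever array was left out, while that of ST14 was lost without CSC array 2 (adjusted p = 0.0714), DU145 array 1 (0.0859), DU145 array 2 (0.0939) or DU145 array 3 (0.0548). Of the genes that did not pass, LIN7B of the Crumbs complex had a log2 change of 1.14 (limma adjusted p = 0.129), the junctional adhesion molecule JAM3 one of -0.90 (adjusted p = 0.0811) and PRKCZ, an atypical protein kinase C, one of 0.85 (adjusted p = 0.253).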

How the data were processed

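RNA of 4 CSC and 3 DU145 samples was measured on Human Exon 1.0 ST arrays. The deposited log2 values were made by the authors with oneChannelGUI, as gene-level Robust Multichip Average summaries after quantile-sketch normalization. For the genome build and for filters before deposit, the answer is not given in the sources used here. RNA input and extraction reagent differ between the labels and the methods. The log2 values of 22011 clusters ran from 0.24 to 13.8. No array copied another: identical values made up 6.43% to 10.5% of clusters in each pair of arrays.

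Clusters were named through the platform's gene table: 14432 had 1 symbol, 2408 several and 5171 none. Genes were read from clusters with 1 symbol, the brightest where 197 genes had more than 1. No listed gene had more than 1.

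CSC minus DU145 was fitted with limma 3.58.1 in R 4.3.3 (1 term, condition, moderated by empirical Bayes), and the script was tested on simulated data. Adjusted p-values are Benjamini-Hochberg over all clusters unless stated. Errors are SD or the model's standard error. The number of arrays limits the precision. Motifs were counted in a RefSeq promoter table (GRCh38.p14).

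The members and lists were chosen with earlier results of these data known. Per-array values are given for members that passed or exceeded the fold limit, and up to 3 others per role group are named by size of change. The array values of MARVELD3 and DSG2, the neighbour pairs and the members outside that rule (CLDN1, PALS1, LLGL2, PKP1, PKP4, CTNNA1 and AFDN) were chosen after values were seen. Alternatives covered thresholds, scaling, a filter on dim clusters, moderation, the methods' t-test, array weights, a replicate block, the clusters tested, the clusters per gene and each array left out. Same-numbered CSC and DU145 arrays deviated from their group means with correlations of -0.015 to 0.07, against -0.104 to 0.046 for arrays of different numbers. The arrays numbered 1 (0.07) and 3 (0.048) had the highest of all. As all were small, same-numbered arrays were not treated as pairs. Exon-level values and clusters with several symbols were not analysed here.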

Additional observations from a re-analysis of the deposited data

Results flagged for a closer look

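In the 33 junction genes tested for a CSC array far from the others, 4 arrays stood apart by Dixon's criterion (the gap to the nearest array over the range of the 4). In normal values without ties, chance marks about 1 group in 20. CLDN16, DSG3 and PKP3 had arrays that share an identical value, so that rate cannot be applied to them. JUP was lowest on CSC array 1, at 7.66, with the other CSC arrays at 8.29 to 8.36. CLDN16 was highest on CSC array 4, at 6.62, with the others at 3.83 to 3.93, close to the DU145 arrays. DSG3, at background, was at 2.88 on CSC array 4, with the others at 2.73. PKP3, a plakophilin, was highest on CSC array 3, at 6.54, with the others at 6.19 to 6.21. Of these genes only JUP passed the test. The DU145 group of 3 arrays is too small for this criterion.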

How the results depend on the processing

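Against 286 clusters, 957 were called by unadjusted p with the fold limit, 450 with no fold limit, 430 after a further quantile normalization, 495 with array weights and 43 by the methods' t-test, which the study names for its other assays and not for the arrays (826 before adjustment). With the replicate block 0 clusters and 0 members were called by limma (999 clusters, 7 members higher and 2 lower by unadjusted p). Same-numbered arrays deviated together weakly at most (correlations of -0.015 to 0.07). Leaving out 1 array gave 56 to 279 clusters. The 8 members higher became 2 under the t-test (CLDN7 and EPCAM) and 2 to 6 with 1 array left out: 6 without CSC array 1, 2 without CSC array 2 or 3, 5 without CSC array 4, 3 without DU145 array 1, 2 without DU145 array 2 and 4 without DU145 array 3. The 1 member lower became 2 at an unadjusted p, with centred arrays and with array weights, DSC3 being the gain each time, and 0 under the t-test and in each fit with 1 array left out (0 to 0). Centring gave 192 clusters higher and 221 lower, and the further normalization 201 and 229, against 159 and 127. With only clusters of 1 symbol tested they were 182 and 66. The 9 members called stayed called with the intensity trend, the dim filter, clusters of 1 symbol and the mean of a gene's clusters. TJP1, at -0.04 (-0.09 to 0.03 with 1 array left out), became 0.00 with array weights, 0.01 without CSC array 3 and 0.03 without DU145 array 3, and DSG3, at 0.04, became -0.03 with centring. The causes were not tested. The members' median stayed between 0.14 and 0.30. Genes at background have changes that these arrays measure poorly.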

Other observations

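Gap junctions, the channels that join the cytoplasm of neighbouring cells, were looked at as another family of contacts. Of 23 listed connexin and pannexin genes 18 were measured, and none passed the test in limma. By unadjusted p at 0.05 there were 4 higher and 2 lower, where the shares of all genes were 14.9% and 4.19%. Their median log2 change was 0.12. A pair of them was picked out after the values were seen. GJB2, or connexin 26, was at 5.96, 5.42, 5.47 and 6.04 in CSC, against 4.76, 4.52 and 4.83 in DU145 cells, a log2 change of 1.02 (standard error 0.19, limma adjusted p = 0.0551). GJA1, or connexin 43, was at 5.34, 4.52, 4.63 and 4.71 in CSC, against 5.59, 5.56 and 6.15 in DU145 cells, a log2 change of -0.96 (limma adjusted p = 0.106). Neither passed, and the DU145 mean of GJB2 (4.70) and the CSC mean of GJA1 (4.80) lie under the background level of 4.92, so these sizes are not well measured. The groups did not overlap for 4 of the 18 genes, GJB2 and GJB5 higher in CSC (11.1%, against 12.7% of all genes) and GJA1 and GJC1 lower (11.1%, against 3.77%).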
